A study of Mus musculus with 8 samples.

Results

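Vim and 9 further genes of cell movement and the cytoskeleton were followed across hematopoietic stem cells (HSCs) of bone marrow and spleen in anemic mice. The 10 genes were Vim, Lgals1, Lgals3, Anxa1, Anxa2, Crip1, Emp3, Tagln2, Capg and Capns1, chosen by symbol from 15142 genes that all 3 expression tables list. Vim was picked for being high, and Capns1 for being low, in spleen HSCs, so their spleen values are given as a description with no test. The remaining genes were picked with earlier results of the same data known. All 10 passed the filter on low values, as did 11347 genes in all.

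The cells came from wild-type C57BL/6 mice, young adults of both sexes per the study's methods, and were sorted as lineage- Sca-1+ c-kit+ CD150+ CD48-/low. Phenylhydrazine (PHZ), a drug that lyses red blood cells, was injected into the peritoneum at 60 mg/kg, 2 times, and HSCs were sorted 3 days from the last injection, out of the marrow (3 libraries, PHZ BM) or the spleen (2 libraries, PHZ SP). HSCs of mice labelled as treated with PBS, from bone marrow, were the control (3 libraries, control BM). Spleen HSCs of mice without PHZ were not analysed here, and in consequence tissue and treatment cannot be told apart in the comparison of PHZ SP with control BM. Per the methods, marrow cells were enriched for c-kit on magnetic beads before the sort. The lineage antibodies bound Ter119, B220, Gr-1, CD2, CD3 and CD8, and so did not include CD11b.

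Vimentin, the protein of Vim, forms intermediate filaments, which resist deformation and are prominent in migrating and in mesenchymal cells. Around it act proteins of the cell cortex. Annexins bind membrane phospholipids when calcium is present and often work in pairs with small S100 proteins, galectins bind sugars on surface glycoproteins, and calpains are calcium-dependent proteases that cut links between adhesion sites and the cytoskeleton. HSCs leave and enter marrow and spleen through vessel walls, and in the mouse the spleen is a main site of blood formation outside the marrow during anemia.

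The libraries held 8216167 to 13199736 recovered reads each, and the ribosomal RNA precursor Rn45s accounted for 43.3% to 48.6% of these. Levels are in FPKM, which counts fragments per kilobase of a gene after scaling for depth, and differences were taken between values of log2(FPKM + 1), where the added 1 shrinks those of genes with low levels. The HSC label held: all 12 HSC markers examined, Kit, Slamf1, Procr and Hlf among them, were measured in each group, with a summed level of 440.4 to 580.1 FPKM in control BM, 488.2 to 591.5 in PHZ BM and 546.7 to 568.5 in PHZ SP. Markers of other cells were not absent. The summed level of 8 neutrophil genes was 333.0 to 672.1 FPKM in control BM, 349.4 to 897.7 in PHZ BM and 1349 to 1759 in PHZ SP.

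All 10 are protein-coding genes on 9 chromosomes of the mouse genome build mm10. Vim lies at chr2:13574311-13582826, Lgals1 at chr15:78926725-78930465, Lgals3 at chr14:47373860-47386167, Anxa1 at chr19:20373434-20390671 and Anxa2 at chr9:69453683-69491792. Crip1 lies at chr12:113152012-113153879, Emp3 at chr7:45918023-45921426, Tagln2 at chr1:172500246-172507375, Capg at chr6:72538282-72562983 and Capns1 at chr7:30186934-30198883. A pair of them share exon bases with an antisense gene that the tables do not list, over 2.63% of the exon bases of Anxa2 and 8.16% of those of Capns1. The handling of strand is not given in the sources used here, so reads of such partners could count toward these genes.

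Promoters were read from RefSeq sequence (GRCm38.p6, the same build as mm10) to see whether the genes that were high in spleen share the letters of a known element near the start. Of the 10 genes, 9 had an entry, and Emp3 had 2, which made 10 promoters. The 250 bases before the start are shown for Vim and Anxa2, which were high in PHZ SP, and for Capns1, which was low there. The start that RefSeq gives lies inside the gene spans above for Capns1 (3730 bases from the 5′ end of the span), for Capg (11365 bases) and for 1 Emp3 entry (577 bases). Capitals mark matches, on either strand, to the AP-1 site (TGANTCA), the GC box (GGGCGG), the TATA box (TATAAA), the GATA site (AGATAA), the CACCC box (CCACACCC), the ETS core (CCGGAAG) and the NF-kB site; none of these motifs contains another.
Vim, chr2:13574061-13574310, plus strand: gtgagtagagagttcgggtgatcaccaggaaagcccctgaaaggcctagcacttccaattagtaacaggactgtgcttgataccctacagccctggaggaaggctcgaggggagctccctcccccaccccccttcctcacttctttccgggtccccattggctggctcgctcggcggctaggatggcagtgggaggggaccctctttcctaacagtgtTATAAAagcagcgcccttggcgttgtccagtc
Anxa2, chr9:69453433-69453682, plus strand: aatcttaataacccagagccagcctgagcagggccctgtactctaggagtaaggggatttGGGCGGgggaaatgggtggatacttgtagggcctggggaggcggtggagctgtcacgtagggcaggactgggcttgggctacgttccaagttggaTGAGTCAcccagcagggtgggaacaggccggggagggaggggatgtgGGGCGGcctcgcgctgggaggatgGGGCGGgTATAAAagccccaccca
Capns1, chr7:30195154-30195403, minus strand: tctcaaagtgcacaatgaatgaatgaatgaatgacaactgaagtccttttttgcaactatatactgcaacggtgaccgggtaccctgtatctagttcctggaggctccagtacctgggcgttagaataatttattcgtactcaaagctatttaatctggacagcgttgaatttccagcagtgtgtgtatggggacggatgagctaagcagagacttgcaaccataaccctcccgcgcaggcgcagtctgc

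The TATA box of Vim began 32 bases before the start, and Anxa1 had one at the same distance. Anxa2 had a TATA box 17 bases before its start, an AP-1 site 95 bases before it and 3 GC boxes. No motif of the 7 was found in the Capns1 window. In the 300-base windows, which also take in 50 bases after the start, 4 of the 10 promoters held a TATA box (Vim, Anxa1, Anxa2 and 1 of the Emp3 entries), a match that 13.6% of all 32851 promoters have. A GC box was found in 4 (Anxa2, Crip1, Lgals3 and Tagln2; 35.7% of all promoters), a CACCC box in 2 (Capg and Emp3; 3.56%), a GATA site in 1 (Crip1; 11.2%) and an AP-1 site in 1 (Anxa2; 7.81%). The ETS core (8.86% of all promoters) and the NF-kB site (0.155%) were found in none. No motif was shared by all of the genes with an entry that were high in the spleen libraries.

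**Figure D1:**
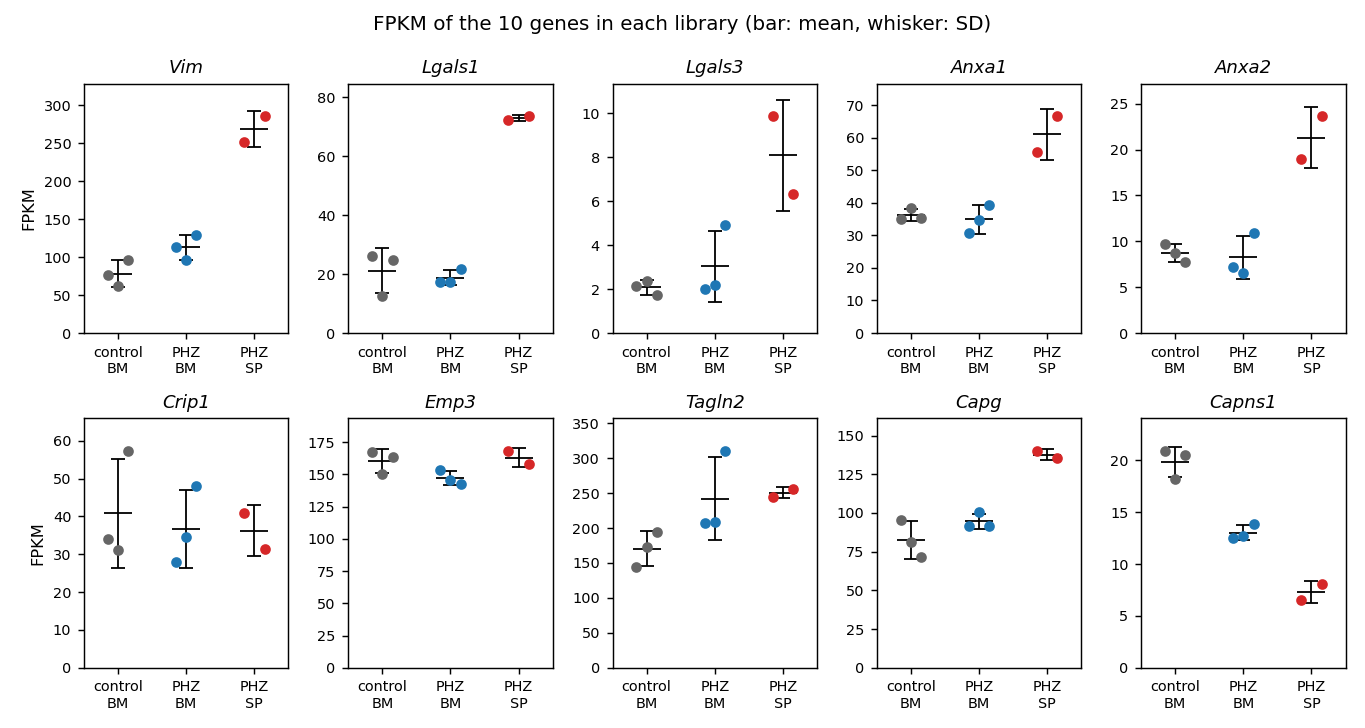
FPKM of each of the 10 genes (vertical axes, from 0) in the 3 control BM, 3 PHZ BM and 2 PHZ SP libraries; points are libraries, bars are group means and whiskers are SD. In Vim, Lgals1, Lgals3, Anxa1, Anxa2 and Capg both PHZ SP libraries lie above all 6 marrow libraries, and in Capns1 both lie below them.

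Vim encodes the filament protein itself. It had 76.6, 62.2 and 96.3 FPKM in control BM, 113.5, 96.5 and 129.1 in PHZ BM, and 251.3 and 285.4 in PHZ SP. Each group lay wholly above the one before it, the marrow groups by a small margin and the spleen by a wide one. Such an ordered rise without overlap was seen in 0.837% of all genes tested, a share from which nothing is read because Vim was chosen for its spleen level. Between PHZ BM and control BM, where it was not chosen, the log2 difference was 0.54 ± 0.17 (SE, limma adjusted p = 0.136), which did not pass the threshold of 0.05. The mean in PHZ SP was 268 ± 24.1 FPKM (SD, n = 2), 3.43 times that of control BM and 2.37 times that of PHZ BM.

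Capns1 encodes the small regulatory subunit that calpain 1 and calpain 2 share, and it had the opposite order. Its libraries read 20.9, 18.2 and 20.5 FPKM in control BM, 12.5, 12.7 and 13.8 in PHZ BM, and 6.53 and 8.03 in PHZ SP. Every PHZ BM library was below every control library and both PHZ SP libraries were below those, an ordered fall found in 0.908% of genes, from which again nothing is read because Capns1 was chosen for its spleen level. Against control BM the log2 difference of PHZ BM was -0.57 ± 0.18 (SE, limma adjusted p = 0.120), which did not pass. The mean in PHZ SP, 7.28 ± 1.06 FPKM (SD, n = 2), was 0.367 times the control mean and 0.559 times that of PHZ BM. As these are bulk samples, fewer cells of a type and less RNA per cell cannot be told apart, here or for any gene that follows.

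Among the galectins, Lgals1 (galectin-1, which binds glycoproteins and matrix at the cell surface) rose in spleen HSCs. Control BM had 26.1, 12.5 and 24.9 FPKM, PHZ BM 17.3, 17.3 and 21.6, and PHZ SP 72.1 and 73.5. The spleen libraries were nearly alike and far above all marrow libraries, whose groups overlapped. The log2 difference was 1.80 ± 0.28 (SE) against control BM (limma adjusted p = 0.0172) and 1.91 ± 0.28 against PHZ BM (adjusted p = 0.0114). Between the marrow groups it was -0.11, with a 95% interval of -0.65 to 0.44. The call against control BM was lost without the filter on low values (adjusted p = 0.0512), and both calls were lost when either PHZ SP library was left out (adjusted p of 0.0889 to 0.162), as was the call against PHZ BM without PHZ BM replicate 1 (0.0584).

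Lgals3 (galectin-3, abundant in macrophages and other myeloid cells) was the lowest of the 10 in control BM. It had 2.15, 2.38 and 1.72 FPKM there, from 39 to 41 reads a library, 2.002, 2.18 and 4.91 in PHZ BM, and 9.87 and 6.31 in PHZ SP. The spleen libraries stood above the rest, with PHZ BM replicate 3 closest to them. Its log2 difference was 1.54 ± 0.34 (SE) against control BM (limma adjusted p = 0.0631) and 1.22 ± 0.34 against PHZ BM (adjusted p = 0.131), so neither passed. Without PHZ BM replicate 3, which enters the first comparison through the shared spread only, that comparison reached an adjusted p of 0.0471.

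The annexins followed with smaller differences. Anxa2 (annexin A2, which links membranes to actin and pairs with S100A10) had 9.73, 8.74 and 7.73 FPKM in control BM, 7.23, 6.59 and 10.9 in PHZ BM, and 19.0 and 23.6 in PHZ SP. Both spleen libraries were above all marrow libraries, and the marrow groups overlapped. It rose against PHZ BM, with a log2 difference of 1.29 ± 0.25 (SE, limma adjusted p = 0.0372). Against control BM the difference of 1.19 ± 0.25 missed the threshold (adjusted p = 0.0554), and was past it without PHZ BM replicate 3 (0.0455) and by voom on recovered reads (0.0351). The call against PHZ BM was lost with no filter on low values (0.0753), with the replicate block (0.0578), and without either PHZ SP library, PHZ BM replicate 1 or 2, or control BM replicate 3 (0.0503 to 0.170).

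Anxa1 (annexin A1, a mediator of resolving inflammation and of leukocyte migration) had 34.9, 38.4 and 35.4 FPKM in control BM, 30.6, 34.8 and 39.4 in PHZ BM, and 55.5 and 66.6 in PHZ SP. The spleen libraries again lay above the rest, and the marrow groups overlapped. The log2 difference was 0.73 ± 0.17 (SE) against control BM (limma adjusted p = 0.0801) and 0.79 ± 0.17 against PHZ BM (adjusted p = 0.0598), neither past the threshold. Without PHZ BM replicate 3 the latter reached 0.0422.

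The actin-binding members split. Capg, which caps the fast-growing ends of actin filaments, had 95.7, 81.1 and 71.3 FPKM in control BM, 91.7, 100.4 and 91.7 in PHZ BM, and 140.1 and 135.4 in PHZ SP. Its spleen libraries were above all marrow libraries. The log2 difference was 0.74 ± 0.15 (SE) against control BM (limma adjusted p = 0.0553) and 0.54 ± 0.15 against PHZ BM (adjusted p = 0.144), so neither passed. The first did so by voom on recovered reads (0.0361) and without control BM replicate 1 (0.0476).

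Tagln2 (transgelin-2, which stabilises actin filaments) had a different order. Its libraries read 144.1, 172.4 and 194.1 FPKM in control BM, 207.6, 208.5 and 310.4 in PHZ BM, and 245.0 and 256.3 in PHZ SP. All PHZ libraries, of either tissue, were above all control libraries, and the highest was PHZ BM replicate 3. The log2 difference from control BM was 0.49 ± 0.17 (SE) in PHZ BM (limma adjusted p = 0.161) and 0.57 ± 0.19 in PHZ SP (adjusted p = 0.178), and neither passed. Between the PHZ groups it was 0.08, with a 95% interval of -0.34 to 0.49.

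Crip1 and Emp3 showed no difference that the spread allowed to be seen. Crip1, a small LIM-domain protein linked to actin bundling, had 33.9, 31.2 and 57.3 FPKM in control BM, 27.8, 34.4 and 48.0 in PHZ BM, and 41.0 and 31.5 in PHZ SP. All 3 groups overlapped. The 95% interval of its log2 difference between PHZ SP and control BM was -0.75 to 0.50, which leaves room for differences of that size.

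Emp3, a membrane protein of the PMP22 family, was the steadiest. It had 167.6, 150.2 and 163.6 FPKM in control BM, 153.2, 145.4 and 142.8 in PHZ BM, and 168.1 and 157.7 in PHZ SP. The spleen and control ranges overlapped, whereas both spleen libraries lay just above the PHZ BM range. Its log2 difference from control BM was 0.02 in PHZ SP, with a 95% interval of -0.25 to 0.29, the narrowest of the 10 genes in that comparison.

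**Figure D2:**
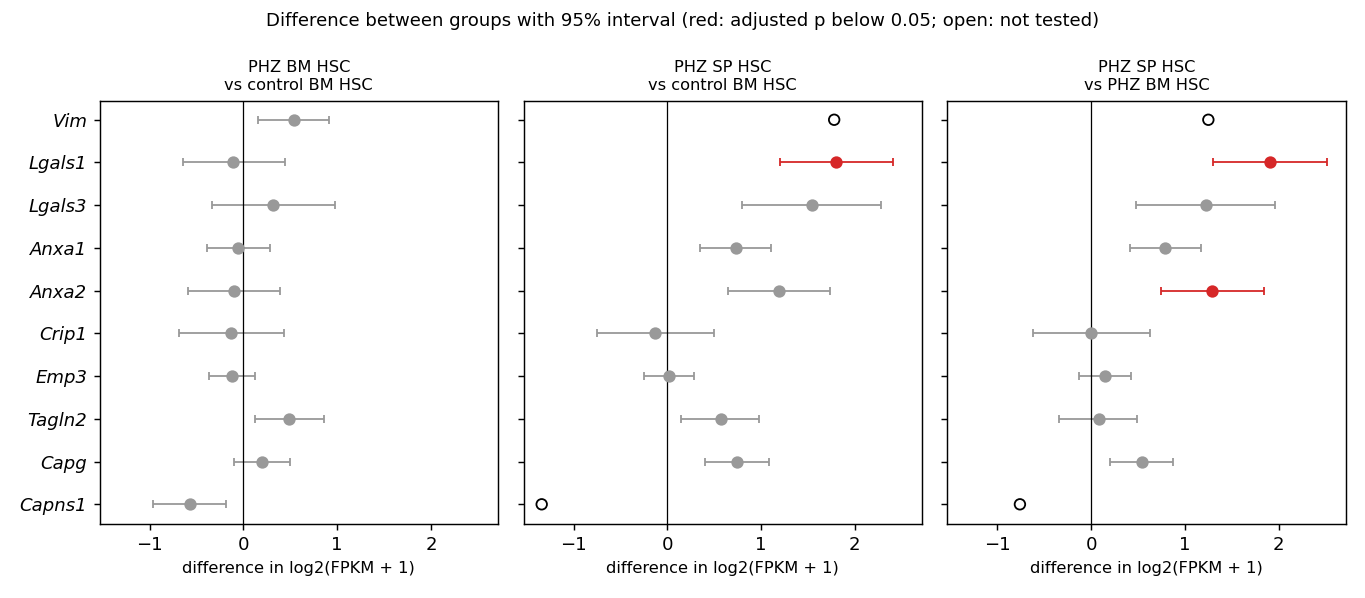
Difference in log2(FPKM + 1) between groups (horizontal axes) for the 10 genes in the 3 comparisons, with 95% intervals from limma; red marks an adjusted p below 0.05, grey one above it, and open circles the values of Vim and Capns1 that were not tested. Lgals1 is red in both spleen comparisons at 1.80 and 1.91, Anxa2 in one at 1.29, and nothing is red in the comparison of the marrow groups.

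Counted together, 0 of the 10 genes passed between PHZ BM and control BM, where 2.74% of all 11347 genes did. By voom on recovered reads 0 passed as well. At an unadjusted p below 0.05 the count was 3 (Vim, Tagln2 and Capns1) by limma and 3 by voom, where 16.6% of all genes were below it by limma. Those 3 were also the genes whose marrow groups did not overlap, as was the case for 23.9% of all genes. Of the 8 members tested between PHZ SP and control BM, 1 passed (Lgals1), where 0.758% of all genes passed and 0.626% did so with the spleen higher. Between PHZ SP and PHZ BM 2 of 8 passed (Lgals1 and Anxa2), where 0.978% of all genes did and 0.608% with the spleen higher. These spleen counts rest on genes picked with the results known, and nothing is read from them.

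The ranges of PHZ SP and control BM did not overlap in 8 of the 10 genes (28.9% of all genes), and those of PHZ SP and PHZ BM in 8 (34.8%). In 6 genes both spleen libraries were above all 6 marrow libraries, which 7.07% of all genes showed, and in 1 they were below, which 6.46% showed. The median log2 difference of the 10 genes was -0.08 in PHZ BM and 0.74 in PHZ SP against control BM, and 0.66 between the PHZ groups. The median of all genes tested was 0.01, 0.00 and -0.02 in the same order. Vim and Capns1 were chosen for their spleen values, and Capns1 is the 1 gene below the marrow, so nothing is read from these spleen counts and medians. Over the other 8 genes, themselves picked with the results known, the ranges did not overlap in 6 in either spleen comparison, and the medians were 0.74 and 0.66. The spleen libraries enter 2 of these comparisons and the control libraries 2, so the comparisons are not independent.

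Ordered by level per length, control BM ran from Tagln2 (170 ± 25.1 FPKM, SD, n = 3) and Emp3 (160.5 ± 9.10), whose ranges overlapped, through Capg (82.7 ± 12.3) and Vim (78.3 ± 17.1), which also overlapped, to Crip1 (40.8 ± 14.4) and Anxa1 (36.3 ± 1.89), again overlapping. Lgals1 (21.2 ± 7.52) and Capns1 (19.9 ± 1.44) followed with overlapping ranges, and Anxa2 (8.74 ± 0.9997) and Lgals3 (2.08 ± 0.337) stood apart below them. In PHZ SP Vim was first, its range overlapping that of Tagln2 (251 ± 7.96 FPKM, n = 2). Lgals1 (72.8 ± 1.02) had moved above Anxa1 (61.0 ± 7.87) and Crip1 (36.2 ± 6.72), and Capns1 was last, overlapping only Lgals3 (8.09 ± 2.52).

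PHZ BM replicate 3 was the highest of its group in 8 of the 10 genes, the exceptions being Emp3 and Capg. How often this held over all genes was not counted, so nothing is read from that number. The same library had the most neutrophil marker RNA of its group, a summed 897.7 FPKM against 351.1 and 349.4. Any part of that RNA in the members' levels was not tested.

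**Figure D3:**
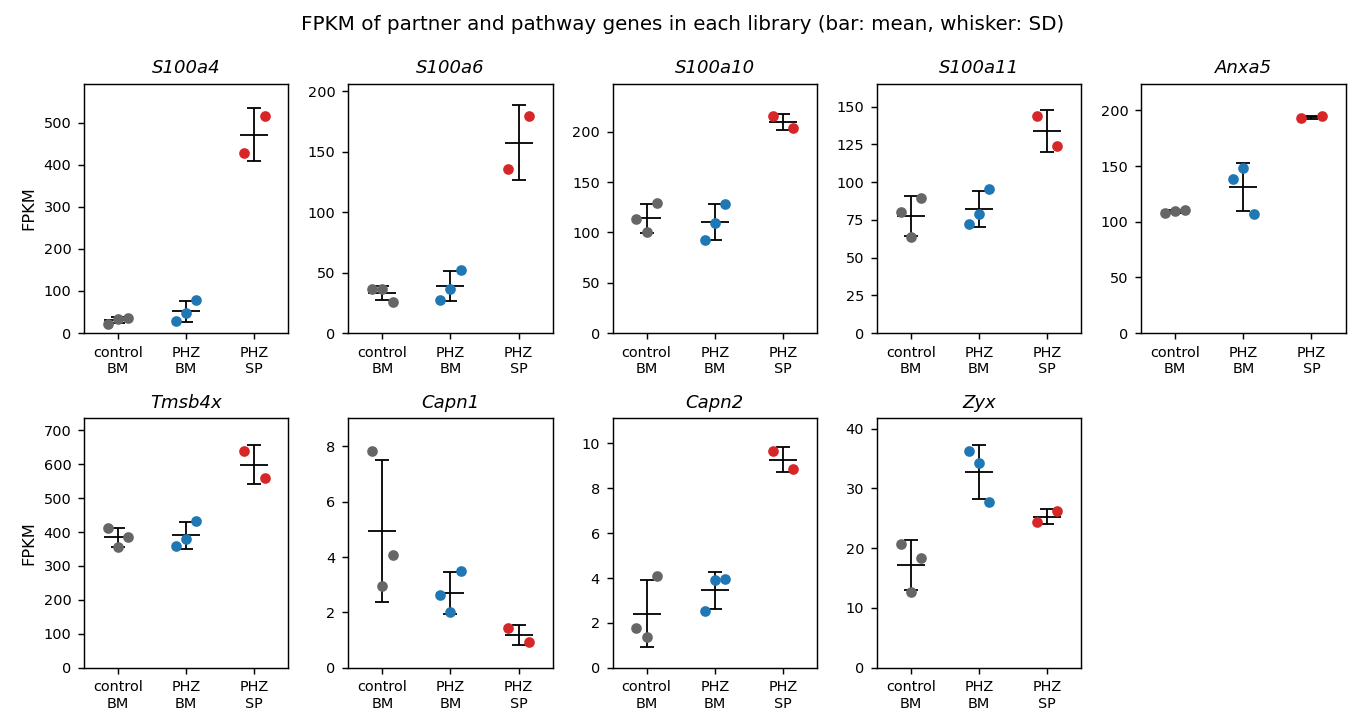
FPKM of 9 partner and pathway genes (vertical axes, from 0) by library, drawn as in the plot of the 10 members, with group means and SD. The S100 genes, Anxa5, Tmsb4x and Capn2 are highest in both PHZ SP libraries, Capn1 is lowest there, and Zyx is highest in PHZ BM.

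Of the 4 genes of S100 proteins that bind annexins, S100a4, S100a6 and S100a10 rose in each spleen comparison, S100a11 did not pass in either, and none passed between the marrow groups. Of all genes, 0.626% rose against control BM and 0.608% against PHZ BM, and nothing is read from the counts because the list was chosen with the results known. S100a4, a calcium-binding protein that acts on non-muscle myosin and on cell motility, had 22.3, 34.3 and 36.5 FPKM in control BM, 28.4, 47.2 and 78.0 in PHZ BM, and 427.5 and 515.6 in PHZ SP. Its log2 difference was 3.91 ± 0.34 (SE) against control BM (limma adjusted p = 0.000866) and 3.29 ± 0.34 against PHZ BM (adjusted p = 0.00389). The first call was kept in all 14 alternatives, and the second was lost only when a PHZ SP library was left out (adjusted p up to 0.0527).

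S100a6, which binds annexin A2 among others, had 36.2, 36.0 and 26.0 FPKM in control BM, 27.6, 36.3 and 52.3 in PHZ BM, and 135.5 and 179.3 in PHZ SP. It rose by a log2 difference of 2.23 ± 0.26 (SE, limma adjusted p = 0.00293) against control BM, a call kept in 13 of 14 alternatives and lost without PHZ SP replicate 2 (adjusted p = 0.0524). Against PHZ BM it rose by 2.03 ± 0.26 (SE, limma adjusted p = 0.00550), a call lost without either PHZ SP library (adjusted p up to 0.0808).

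S100a10, the partner of annexin A2 in a heterotetramer, had 113.4, 100.2 and 128.9 FPKM in control BM, 92.7, 109.2 and 128.7 in PHZ BM, and 215.7 and 204.2 in PHZ SP. It rose by 0.88 ± 0.17 (SE, limma adjusted p = 0.0428) against control BM and by 0.94 ± 0.17 (adjusted p = 0.0268) against PHZ BM. These calls were kept in 6 and 9 of the 14 alternatives, and both were lost without either PHZ SP library or PHZ BM replicate 2 (adjusted p up to 0.236). The first was also lost without any control library, and the second without PHZ BM replicate 1. The last of the list, S100a11, which binds annexin A1, had 63.4 to 89.7 FPKM in control BM and 123.9 and 143.7 in PHZ SP, with no pass (0.79 ± 0.18, adjusted p = 0.0769).

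Of the 7 other annexins tested, only Anxa5 passed, and in 1 comparison. This was PHZ SP against control BM, where 0.758% of all genes passed and 0.626% did so with the spleen higher. This phosphatidylserine-binding annexin had 107.4, 110.0 and 110.4 FPKM in control BM, 138.0, 148.5 and 106.9 in PHZ BM, and 193.0 and 194.8 in PHZ SP. The spleen libraries were highest, by 0.82 ± 0.15 on the log2 scale against control BM (SE, limma adjusted p = 0.0422). That call was kept in 4 of 14 alternatives, its adjusted p ranging from 0.00819 to 0.223, and was lost without any library but PHZ BM replicate 3. Against PHZ BM the difference of 0.57 ± 0.15 did not pass (adjusted p = 0.118). Of the other 6, values between PHZ SP and control BM were higher in 3 and lower in 3.

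The calpain system had no gene that passed among the 9 tested besides Capns1. By the mean over all 8 libraries the most abundant of them was Capn5, a calpain that works without the small subunit, at 5.67 to 11.4 FPKM in control BM and 4.86 and 8.39 in PHZ SP. The catalytic partners of the Capns1 product were looked at after their values were seen. Capn1 had 7.83, 2.94 and 4.07 FPKM in control BM, 2.62, 2.01 and 3.49 in PHZ BM, and 1.44 and 0.920 in PHZ SP, the spleen being lowest (-1.37 ± 0.36 against control BM, limma adjusted p = 0.0989).

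Capn2 went the other way, with 1.77, 1.36 and 4.11 FPKM in control BM, 2.51, 3.91 and 3.95 in PHZ BM, and 9.67 and 8.88 in PHZ SP. Its difference against control BM, 1.67 ± 0.34 (SE, limma adjusted p = 0.0535), missed the threshold, which it passed in 3 of 14 alternatives. So the shared subunit and calpain 1 had their lowest FPKM, and calpain 2 its highest, in the same 2 libraries.

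The other families gave 1 call in all. Of 11 further intermediate filament and lamin genes none passed in any comparison. Krt18, a keratin expressed in HSCs and the most abundant of them, had 88.1 to 104.9 FPKM in control BM and 104.0 and 140.1 in PHZ SP. None of 5 further galectins passed, with Lgals9 (a galectin of immune cells) at 91.9 to 115.1 FPKM in control BM and 90.5 and 104.4 in PHZ SP. Nor did any of 9 further gelsolin and actin-capping genes, 2 further calponin-family genes or 3 further cysteine-rich LIM genes, led in abundance by Capzb (a subunit of the actin capping protein), Cnn2 (an actin-binding calponin) and Csrp1 (a LIM protein of the actin cytoskeleton).

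The call was Emp2, a tetraspan relative of Emp3. No read was recovered for it in any control BM library, 7 to 47 reads in PHZ BM, and 123 and 77 in PHZ SP, or 3.20 and 2.15 FPKM there (limma adjusted p = 0.0476 against control BM). With no control library and only 1 PHZ BM library at 1 FPKM or more, Emp2 passed the filter on low values through PHZ SP, the group where it is high, so nothing is read from its call. The call was kept in 1 of the 14 alternatives, voom on recovered reads, and lost whichever library was left out (adjusted p up to 0.263). The difference from PHZ BM, where replicate 1 reached 1.30 FPKM, did not pass (adjusted p = 0.154).

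Of 31 genes of actin, myosin and their regulators, Tmsb4x alone passed. It did so against control BM, where 0.626% of all genes passed with the spleen higher, and against PHZ BM, where 0.608% did. This gene of thymosin beta-4, which holds actin monomers in reserve, had 411.6, 355.3 and 386.5 FPKM in control BM, 357.5, 379.7 and 433.4 in PHZ BM, and 639.2 and 558.2 in PHZ SP. Both spleen libraries were above all others, by 0.64 ± 0.13 on the log2 scale against control BM (SE, limma adjusted p = 0.0476) and 0.62 ± 0.13 against PHZ BM (adjusted p = 0.0469). These calls were kept in 4 and 5 of 14 alternatives, and each was lost without any library but PHZ BM replicate 3 (adjusted p up to 0.289 and 0.333). Across the list 24 of 31 genes had a higher fitted mean in PHZ SP than in control BM, with a median log2 difference of 0.22 beside 0.00 over all genes. The count was 21 in PHZ SP against PHZ BM and 18 in PHZ BM against control BM. Nothing is read from these counts and the median because the list was chosen with the results known.

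Of 13 genes that link adhesion sites to actin, Zyx (zyxin, of focal adhesions) was the only call. It passed between PHZ BM and control BM, where 2.74% of all genes did, and its highest values were in PHZ BM. It had 20.7, 12.6 and 18.3 FPKM in control BM, 36.3, 34.2 and 27.7 in PHZ BM, and 24.4 and 26.2 in PHZ SP. It rose in PHZ BM by 0.91 ± 0.20 (SE, limma adjusted p = 0.0373) and did not pass in PHZ SP (0.56 ± 0.23, adjusted p = 0.262). The call was kept in 5 of 14 alternatives, those without a library included only for control BM replicate 1 and PHZ BM replicate 3 (adjusted p of all 14 from 0.0199 to 0.174). The summed level of 10 immediate early genes, Fos and Egr1 among them, was also highest in PHZ BM. It was 830.3 to 1046 FPKM there, 106.4 to 138.9 in control BM and 271.3 to 312.9 in PHZ SP. Of the 10, Atf3 had a slightly higher mean in PHZ SP than in PHZ BM (0.575 against 0.538 FPKM). Any link to Zyx was not tested.

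**Figure D4:**
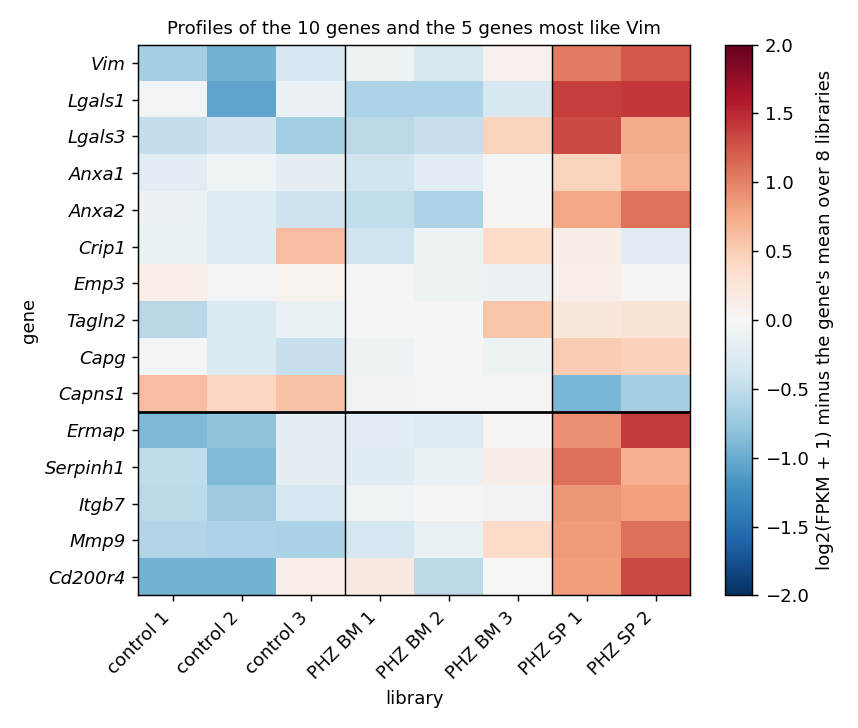
Heat map of log2(FPKM + 1) minus each gene's mean over the 8 libraries (color scale), with the 10 members above the line and the 5 genes most like Vim below it; columns are libraries. Vim and the 5 genes below the line are positive in both PHZ SP libraries, and Capns1 is negative there.

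The 5 genes whose profile over the 8 libraries lay nearest to that of Vim were Ermap, Serpinh1, Itgb7, Mmp9 and Cd200r4, none of them a member. Their root mean square difference from Vim, in log2(FPKM + 1) centred per gene, was 0.145 for Ermap, a red cell membrane protein gene, 0.213 for Serpinh1, a collagen chaperone gene, 0.232 for Itgb7, an integrin beta chain gene, 0.239 for Mmp9, a matrix metalloproteinase gene, and 0.239 for Cd200r4. Itgb7 was the most abundant, at 5.15 ± 0.801 FPKM in control BM (SD, n = 3), 7.69 ± 0.464 in PHZ BM (n = 3) and 15.0 ± 0.584 in PHZ SP (n = 2). The other 4 had means below 1 FPKM in control BM and of 2.81 to 3.60 in PHZ SP. Ermap was under 1 FPKM in all marrow libraries, and Serpinh1 in all but PHZ BM replicate 3 (1.20 FPKM). Both passed the filter on low values through PHZ SP, the group where they are high. Vim was chosen for its spleen level, and the added 1 shrinks differences of genes this low, so nothing is read from the likeness.

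Among 11346 other genes the members came 57th (Lgals1), 66th (Anxa2), 73rd (Lgals3), 223rd (Anxa1), 287th (Capg), 592nd (Tagln2), 3191st (Emp3), 5210th (Crip1) and 11031st (Capns1) in likeness to Vim. The points share 8 libraries and the group structure, so this is a description of order alone.

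**Figure D5:**
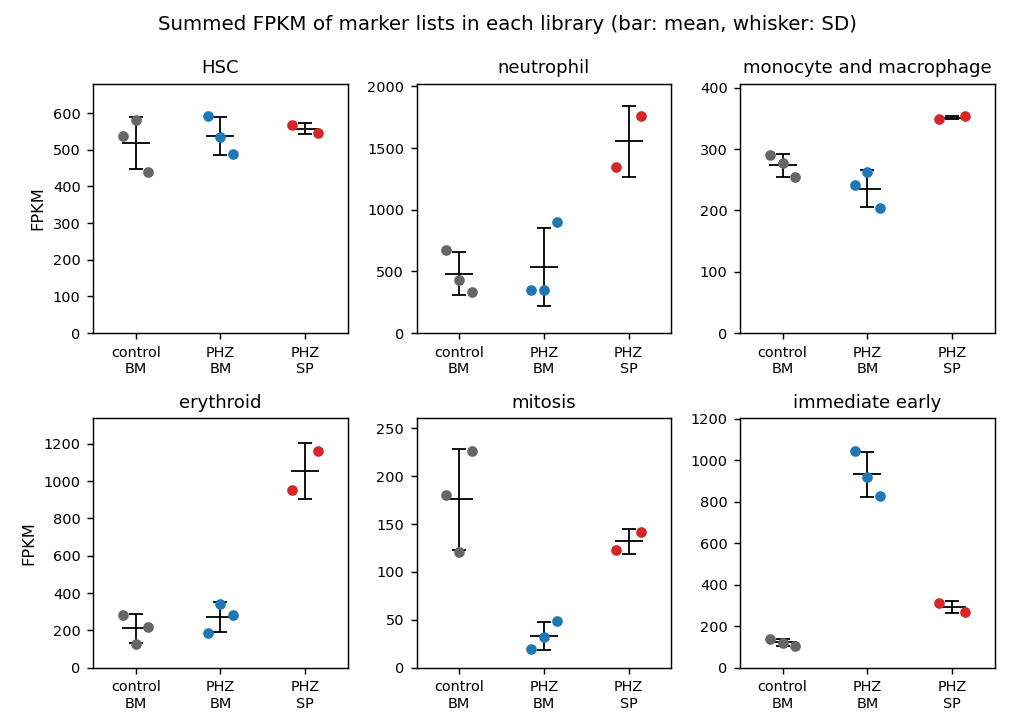
Summed FPKM of 6 marker lists (vertical axes, from 0) in each library, with group means and SD. HSC markers are at a like level in all groups, the neutrophil, erythroid and monocyte and macrophage sums are highest in both PHZ SP libraries, mitosis genes are lowest and immediate early genes highest in PHZ BM.

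Several members and S100 genes are also abundant in mature myeloid cells, and markers of other cells moved with them in the spleen libraries. All 8 neutrophil genes had a higher fitted mean in PHZ SP than in either marrow group. Of them S100a8 and Retnlg passed against control BM, where 0.626% of all genes passed with the spleen higher. S100a8 also passed against PHZ BM, where 0.608% did. Nothing is read from these counts because the list was chosen with the results known. None of the 8 was at 0 in any group, and S100a8 had 164.6 to 263.1 FPKM in control BM, 143.9 to 340.7 in PHZ BM, and 586.6 and 786.2 in PHZ SP. The part of neutrophil RNA in the members' spleen levels was not tested.

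The 12 monocyte and macrophage genes listed in all tables summed to 253.8 to 291.1 FPKM in control BM, 203.3 to 261.9 in PHZ BM, and 349.3 and 353.7 in PHZ SP, and none of the 8 tested passed in any comparison. Lyz2 made up most of that sum, at 180.8 to 310.4 FPKM. Cd68 was 0.00 to 8.48 FPKM in control BM, 4.93 to 16.7 in PHZ BM, and 34.4 and 57.6 in PHZ SP (limma adjusted p = 0.0582 against control BM). In PHZ SP 6 of the 12 (Csf1r, Adgre1, Ccr2, C1qb, Marco and Cd5l) were under 1 FPKM in both libraries, while C1qa, C1qc, Cd14 and Spic had means of 1.57, 0.638, 1.06 and 2.02 FPKM. Marco was at 0 in all marrow libraries, and none of the 12 was at 0 throughout PHZ SP. The part of macrophage RNA in the members' spleen levels was not tested.

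Of 10 erythroid genes, 7 rose in PHZ SP against control BM, beside 0.626% of all genes, and 2 (Hbb-bt and Slc4a1) against PHZ BM, beside 0.608%. Ermap, among the 7, was under 1 FPKM in all marrow libraries and so was tested only through its spleen values. The sums were 129.6 to 285.4 FPKM in control BM, 184.2 to 343.7 in PHZ BM, and 950.6 and 1162 in PHZ SP. Those of 7 dendritic cell genes, 5 mast cell and basophil genes, and 9 endothelial and stromal genes did not exceed 7.32 FPKM in any library, and 8 of the 9 stromal and endothelial genes were under 1 FPKM in both PHZ SP libraries. The ninth, Pdgfrb, a receptor of stromal cells, had a mean of 2.34 FPKM there, 1.70 in control BM and 3.53 in PHZ BM. The 13 T and NK cell genes summed to 23.6 to 66.9 FPKM in control BM and 57.4 and 58.3 in PHZ SP. They had 1 call (Klrb1c, higher) among the 3 tested in each spleen comparison, again beside 0.626% and 0.608% of all genes. The 6 B cell genes (26.8 to 50.6 and 38.3 to 53.8 FPKM) had none among the 3 tested. The 6 megakaryocyte genes had higher sums, 103.2 to 124.7 FPKM in control BM, 71.2 to 79.3 in PHZ BM and 79.6 to 129.2 in PHZ SP. Of the 5 tested, Pf4 and Ppbp fell in PHZ BM against control BM (limma adjusted p = 0.0424 and 0.0265), where 2.74% of all genes passed in either direction. None of the 5 passed in the spleen comparisons.

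Mitosis genes had another order of groups. Their sum over 12 genes was 121.1 to 226.3 FPKM in control BM, 19.7 to 48.5 in PHZ BM, and 122.6 and 141.3 in PHZ SP. Of the 12, 9 fell in PHZ BM against control BM, where 2.74% of all genes passed in either direction, 4 rose in PHZ SP against PHZ BM, beside 0.608% of all genes, and none passed between PHZ SP and control BM. The part of cell division in the members' differences was not tested.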

How the data were processed

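Groups and replicate numbers were taken from the sample titles. The marrow columns are named WBM where the titles say BM HSC and were taken as sorted HSCs. Per the methods and labels, the authors made cDNA with SMART-Seq2 and libraries with Nextera XT, mapped reads to mm10 with STAR, and deposited FPKM values in a table per group. The gene counter, annotation release and strand handling are not given in the sources used here. Their tables of DESeq2 comparisons, which hold fold changes and p-values, were not used. All columns of values were matched to a sample.

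The deposited FPKM tables had been scaled in 2 sets: median-of-ratios factors computed on PHZ SP with control BM gave those of the control table, and on PHZ SP with PHZ BM those of the PHZ tables. A single set over all 8 libraries was therefore applied, which moved no library by more than 1.05%. FPKM values stepped by the worth of a single read, and reads worked back from them came out whole, within 0.001 read, for all 15142 genes. Depth sets the precision: totals were 8216167 to 13199736 reads, and the 10 genes had 38 to 8356 reads in a library. The protocol has no molecular identifiers, so PCR copies count as separate reads.

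Differences were tested two-sided with limma 3.58.1 (trend, robust) in R 4.3.3, on log2(FPKM + 1), in a single fit of all 8 libraries with group as factor, for 11347 genes at 1 FPKM or more in at least 2 libraries. Adjusted p-values are Benjamini-Hochberg over all genes tested, with a threshold of 0.05. The labels and methods do not say, for these libraries, whether replicates are separate animals; if not, p-values measure the spread between these samples, which may be technical. The steps were tested on simulated data with changes set in PHZ BM against control BM only, which says nothing of the spleen comparisons.

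The members and lists were chosen with earlier results of these data known. Named genes were all members; of each family or pathway list, the genes that passed, otherwise the most abundant; and the 5 genes nearest to Vim. S100a11, Capn1, Capn2 and the single markers were named beyond that rule. The symbols Parva, Scin, Fcgr1, Anxa8, Anxa10, Anxa13, Capn6, Capn12, Capns2, Lgals2, Lgals12, Tagln3, Cnn1, Crip3, Csrp3, Hba-a2 and Hbb-bs were not in all 3 tables and were not used here. Alternatives were the FPKM as deposited, a pseudocount of 0.1 FPKM, no filter, a fit of only the 2 groups compared, voom on recovered reads, a replicate block, and leaving out each library. Gene positions and promoters are from RefSeq, GRCm38.p6, by Entrez gene ID; exon overlaps are from GENCODE M21. Python 3.11.15 with matplotlib 3.10.9 drew the figures. A pathway list and a marker gene are not reported here.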

Additional observations from a re-analysis of the deposited data

How the results depend on the processing

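Lgals3 and Capg kept the sign of their difference in all 3 comparisons under all 14 alternatives, as did Vim and Capns1, whose spleen signs say nothing of stability because they were chosen by them. The same alternatives were run, after the data were seen, for the partner genes. No member passed between the marrow groups under any alternative. Members called in PHZ SP against control BM went from 1 to 0 with no filter on low values and to 3 by voom on recovered reads, and in PHZ SP against PHZ BM from 2 to 1 with no filter. Leaving out a library gave 0 to 3 in either comparison, with 0 called in both when either PHZ SP library was left out; the lone spleen sample is then assumed to vary like the other groups.

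All genes called, 311 between the marrow groups, were 205 with no filter and 114 to 306 without a library. For PHZ SP against control BM the main 86 became 39 with a pseudocount of 0.1 FPKM, 46 with no filter, 44 in the fit of only 2 groups and 14 to 83 without a library. For PHZ SP against PHZ BM, 111 became 62 with no filter, 65 by voom and 5 to 148 without a library. The cause was not tested.

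Signs reversed only in log2 differences that never passed. Without a library, the difference of PHZ BM from control BM ranged from -0.43 to 0.07 in Lgals1, -0.15 to 0.03 in Anxa1, -0.30 to 0.03 in Anxa2 and -0.33 to 0.14 in Crip1. That of PHZ SP from control BM ranged from -0.31 to 0.14 in Crip1 and from -0.02 to 0.07 in Emp3, and that of PHZ SP from PHZ BM from -0.18 to 0.21 in Crip1 and from -0.02 to 0.27 in Tagln2. By voom Crip1 was -0.01 in the last comparison.

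Replicate numbers recur across groups. Deviations of same-numbered libraries from their group means had r from -0.008 to 0.060 (7 pairs). In groups of 2 or 3 libraries such deviations depend on one another, so these values cannot show whether the numbers pair the libraries. With the replicate block, 294, 73 and 112 genes were called in the 3 comparisons in the order above, members called in PHZ SP against PHZ BM went from 2 to 1 with the loss of Anxa2 (adjusted p = 0.0578), and Crip1 in PHZ SP against control BM was 0.11.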
